A study of Homo sapiens with 2 samples.

Results

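The miR-513 family was read on 2 one-colour Agilent miRNA arrays of exosomal RNA, and its members were taken as the miRNAs whose name on the array is miR-513a, miR-513b or miR-513c, with both the 5p and the 3p arm of each (hsa-miR-513a-5p, hsa-miR-513a-3p, hsa-miR-513b-5p, hsa-miR-513b-3p, hsa-miR-513c-5p and hsa-miR-513c-3p, written without the species prefix from here on). These are 6 miRNAs of the 2549 on the array. The family was chosen because miR-513b-3p differed strongly between these same arrays, so its difference is a description and carries no test. The RNA came from exosomes, small vesicles released into the medium, of FaDu cells, a human line grown from a squamous carcinoma of the hypopharynx. One array held RNA of cells given the NC plasmid lentivirus (oe-NC), and the other held RNA of cells given the HOTTIP overexpression plasmid lentivirus (oe-HOTTIP), with HOTTIP being a long noncoding RNA of the HOXA locus. The methods name a lipid transfection of plasmids into FaDu cells, so the route of delivery differs between the sources, and neither source says whether the cells were 1 clone or a pool. Per the scanner headers both arrays share their slide and their scan. With 1 array per group, no difference has a replicate check and no p-value was computed. Each array carries contradictory labels, since its description gives the group opposite to that of its title and treatment. The titles were followed, the arrays are named by them (oe-NC-titled and oe-HOTTIP-titled), and every direction is reversed if the descriptions hold instead.

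A miRNA is cut from a hairpin precursor, whose 5′ side gives the 5p arm and whose 3′ side gives the 3p arm, and usually 1 of the arms is kept in the silencing complex. The kept arm pairs with target mRNAs mainly through its seed, bases 2 to 8 from its 5′ end. The miR-513 genes belong to a group of miRNA genes on the long arm of chromosome X, from miR-506 to miR-514, that has expanded in primates, changes quickly in sequence and is known for expression in testis and in melanoma cells. miR-513a-5p is known to act on CD274, the ligand of the immune checkpoint receptor PDCD1.

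In the RefSeq tables (GRCh38.p14), the family lies on the minus strand of chromosome X in 4 hairpins, MIR513C at chrX:147189704-147189787, MIR513B at chrX:147199044-147199127, MIR513A1 at chrX:147213463-147213591 and MIR513A2 at chrX:147225826-147225952. They span 36.2 kb. MIR513A1 and MIR513A2 list the same mature arms, so an array probe for miR-513a cannot tell these genes apart. Mature sequences matched for 4 of the 6 members, and none matched for miR-513b-3p and miR-513c-3p. The seeds and the shares of G and C given here therefore leave these arms out. The matched sequences are shown because they place each arm by its seed, which is in capitals.
miR-513a-5p: uUCACAGGgaggugucau
miR-513b-5p: uUCACAAGgaggugucauuuau
miR-513c-5p: uUCUCAAGgaggugucguuuau
miR-513a-3p: uAAAUUUCaccuuucugagaagg
No seed was shared between these members. All 3 of the 5p arms held the run GGAGGUGUC, which starts at base 8, the last of the seed, and no other of the 2248 miRNAs of the array with a sequence in the table held it (3 of 2248, 0.133%). The share of G and C ran from 34.8% for miR-513a-3p to 50% for miR-513a-5p, against a median of 52.2% over the 2248 miRNAs.

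The hairpins were also set side by side, because the finding turns on the 3p side of MIR513B. The whole MIR513B hairpin is shown first, with the 23 bases that align with miR-513a-3p in capitals (bases 49 to 71 of the hairpin).
MIR513B hairpin: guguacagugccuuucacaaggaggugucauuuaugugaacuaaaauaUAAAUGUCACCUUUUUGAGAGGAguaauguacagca
The same 23 bases of each gene follow, with capitals for the bases at which MIR513B differs from MIR513A1 or MIR513C.
MIR513B: uaaauGucaccuuuUugagaGgA
MIR513A1: uaaauUucaccuuuCugagaAgG
MIR513C: uaaauUucaccuuuCugagaAga
Over 84 aligned bases, 78 were identical between MIR513B and MIR513A1, and 78 between MIR513B and MIR513C. Counted from the 5′ end of the MIR513B hairpin, with the base of MIR513B first, G54U, U63C and G69A were found in both comparisons, and A71G only against MIR513A1 and MIR513A2. Within the bases of miR-513b-5p, MIR513B differed from MIR513A1 by A20G and from MIR513C by A17U and A30G. Ahead of these bases, U2C was found against MIR513A1 and MIR513C. Probe sequences were not used here, and cross-hybridization between these arms was not tested.

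Of the 6 members, 1 was detected, and it was detected on both arrays. It was miR-513b-3p, while miR-513a-5p, miR-513a-3p, miR-513b-5p, miR-513c-5p and miR-513c-3p were detected on neither array. Detection, as the scanner software flags it for a whole miRNA, held for 328 miRNAs (12.9%) on the oe-NC-titled array and 390 (15.3%) on the oe-HOTTIP-titled array, of which 261 were detected on both. Signals were higher in general on the oe-HOTTIP-titled array, with a median unscaled log2 difference of 0.67 over those 261 miRNAs, so intensities were expressed relative to the 90th percentile of these miRNAs on their own array (279.9 and 439) before log2 was taken.

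miR-513b-3p read 78.7 ± 24.3 (SD, 20 spots) on the oe-NC-titled array and 16 ± 3.25 (SD, 20 spots) on the oe-HOTTIP-titled array. The spots ran from 28.5 over a median of 80.6 to 112 on the oe-NC-titled array, and from 11.3 over a median of 15.6 to 22.3 on the oe-HOTTIP-titled array, so the spots of the arrays did not overlap. Negative control spots were at 3.87 ± 2.37 (SD, 976 spots) and 3.45 ± 2.21 (SD, 975 spots), which lies below every spot of miR-513b-3p on each array. All 20 spots were marked well above background on the oe-NC-titled array and 19 of 20 on the oe-HOTTIP-titled array, and none was an outlier or saturated. After scaling, the log2 difference was -2.95 with a spread of 0.53 over spots and a standard error of 0.12 from the number of spots, or 7.73-fold lower on the oe-HOTTIP-titled array. This direction is opposite to that of the columns of the authors' normalized table. These errors are technical and leave out the variation between cultures, extractions and labelling reactions. The standard error also takes the 20 spots as independent, although they come from 2 probes and their signal varied with their place on the array.

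**Figure D1:**
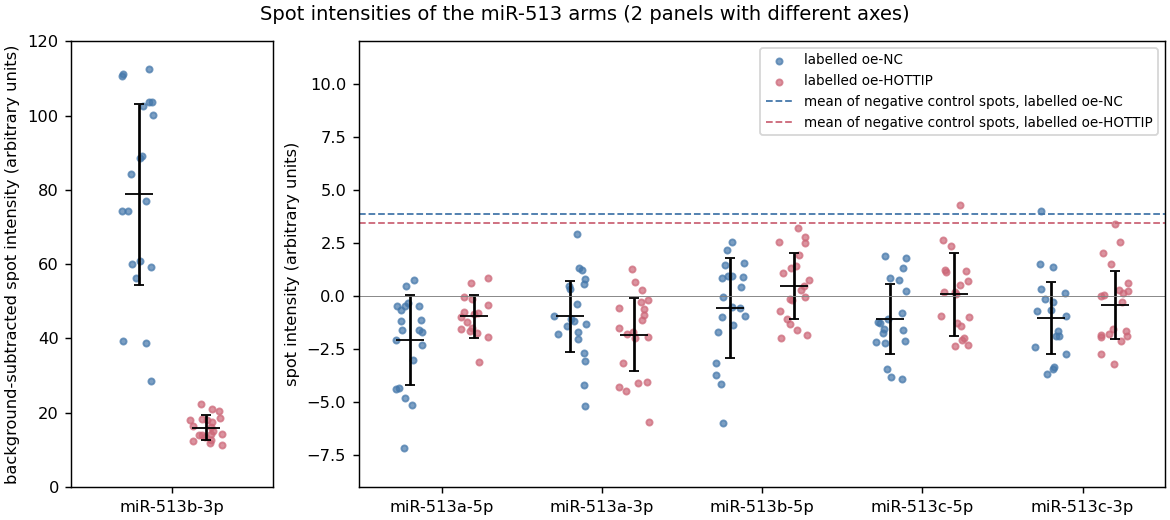
Background-subtracted intensity (arbitrary units) of each spot of the 6 miR-513 arms, outlier spots left out, on the oe-NC-titled array (blue) and the oe-HOTTIP-titled array (red). Black lines are the mean of the probe means ± SD over spots, dashed lines are the means of the negative control spots, and the panels have different axes. The spots of miR-513b-3p lie between 28.5 and 112 (oe-NC) and between 11.3 and 22.3 (oe-HOTTIP), and no spot of the other 5 arms exceeds 4.28.

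The family thus held 1 member at least 2-fold lower and 0 at least 2-fold higher, the fold threshold of the methods. The methods also name a corrected p-value, which was not applied because no p-value was computed. Among all 2549 miRNAs 4.51% were at least 2-fold lower and 6.08% at least 2-fold higher, and among the 261 detected on both arrays 21.1% and 18.0%. The member was chosen from this contrast, so nothing is read from its count. Its difference was the 5th lowest of the 261. The order moved with the processing, from 3rd with quantile normalization to 10th with normexp and an offset of 50. In the authors' table as its columns are named it was 253rd of 258 from the lowest, among the highest.

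Both probes of miR-513b-3p showed the difference. The first had 89.6 ± 19.3 (SD, 10 spots) on the oe-NC-titled array and 16.2 ± 3.53 (SD, 10 spots) on the oe-HOTTIP-titled array, or -3.12 on the log2 scale (spread 0.44). The second had 67.9 ± 28.4 (SD, 10 spots) and 15.8 ± 2.95 (SD, 10 spots), or -2.76 on the log2 scale (spread 0.66). The arrays share 1 layout, so each spot could be set against the spot at the same place on the other array. At all 20 positions the scaled signal was at least 2-fold lower on the oe-HOTTIP-titled array, with log2 differences from -3.78 to -1.73 and a median of -3.03. The smallest difference was at column 158, near the edge, where the spots read 28.5 and 13.5, and the largest was at column 56, with 111 and 12.7. In the right-hand part of the array (columns 110 to 164), the 8 spots of miR-513b-3p had a median of 58.5 on the oe-NC-titled array, below the medians of 92.3 (6 spots, columns 1 to 54) and 107 (6 spots, columns 55 to 109) elsewhere. On the oe-HOTTIP-titled array these medians were 14.2, 17.2 and 15.9. The median log2 differences were -2.13 in the right-hand part, -3.08 in the left-hand part and -3.46 between them. Over the spots of all 261 miRNAs, the signal in the right-hand part of the oe-NC-titled array stood at 0.944 of the median of its own probe. It stood at 1 in the left-hand part and 1.03 between them. On the oe-HOTTIP-titled array these values were 0.984, 0.996 and 1.02. The pattern over columns was thus smaller over all these miRNAs than for miR-513b-3p. The part of spot position in the difference was not tested, and the difference was past 2-fold in each part.

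**Figure D2:**
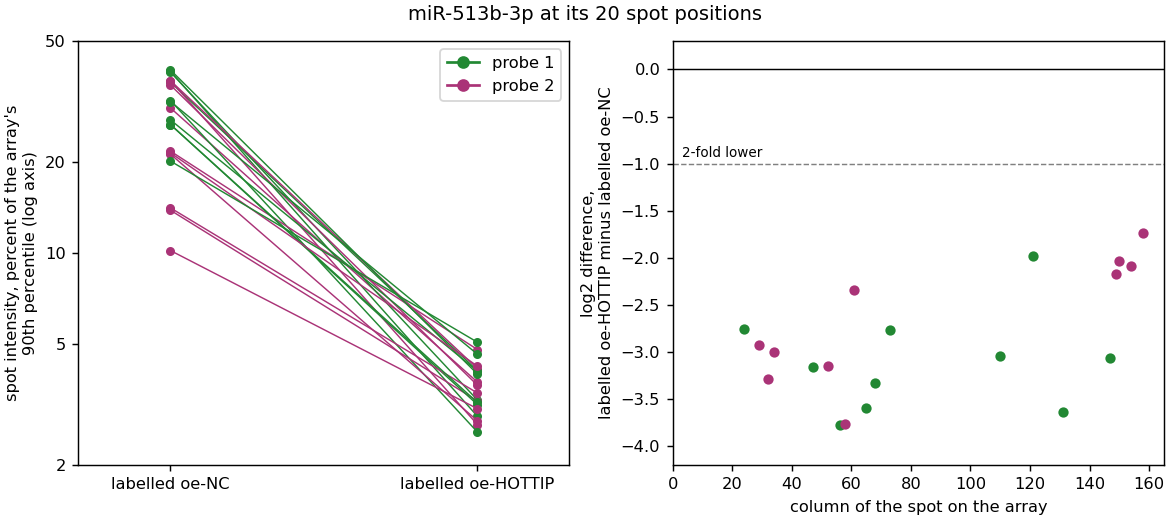
Left, intensity of the 20 spots of miR-513b-3p as a percentage of the 90th percentile of their array (log axis), with a line joining the spots at 1 position and a colour for each of the 2 probes. Right, the log2 difference at each position (oe-HOTTIP-titled minus oe-NC-titled) against the column of the spot. All 20 positions lie between -3.78 and -1.73, below the dashed line of a 2-fold decrease.

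The 5p arm of the same hairpin gave no such signal. miR-513b-5p read -0.57 ± 2.36 (SD, 20 spots) on the oe-NC-titled array and 0.462 ± 1.54 (SD, 20 spots) on the oe-HOTTIP-titled array, with its highest spots at 2.54 and 3.21. None of its 20 spots was well above background on either array. The array reads both arms of 810 hairpin names, and for 42 of them the 3p arm was detected on both arrays and the 5p arm on neither, as for miR-513b. The opposite held for 77 names, and both arms were detected on both arrays for 7. Of the 42 3p arms, 9 (21.4%) were at least 2-fold lower, beside 21.1% of the 261 miRNAs, and the median log2 difference was -0.17. miR-513b-3p had the lowest difference of the 42, followed by -2.59 for miR-1249-3p, but it was chosen for this value. Signals of different probes are not amounts and were not compared between arms.

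The other arms of the family lay at background. miR-513a-5p read -2.09 ± 2.13 (SD, 20 spots) and -0.957 ± 1.02 (SD, 16 spots) on the oe-NC-titled and oe-HOTTIP-titled arrays, where 4 spots of the latter were outliers. miR-513a-3p, which differs from the matching bases of MIR513B at 4 places, read -0.966 ± 1.66 (SD, 20 spots) and -1.82 ± 1.72 (SD, 20 spots). For miR-513c-5p the values were -1.10 ± 1.65 (SD, 19 spots) and 0.0846 ± 1.96 (SD, 19 spots). miR-513c-3p read -1.03 ± 1.69 (SD, 18 spots) and -0.41 ± 1.61 (SD, 20 spots). Intensities below 0 arise because the scanner software subtracts a background. Of the 100 spots of the 5 undetected arms on each array, 0 were well above background, and their means lay under those of the negative control spots. Each arm's spots overlapped between the arrays. The means differed between the arrays by -0.86 to 1.18 intensity units, less than the larger SD over spots of each arm, so no fold is given for them. A difference in these 5 arms was not detectable at this signal, which does not show that they are absent from the exosomes. The 2092 miRNAs detected on neither array had a median of -0.82 and -0.58 on the 2 arrays, with 90% of them between -2.82 and 2.24 and between -2.63 and 2.76, and the 5 arms lay inside these ranges.

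The miRNA genes beside the family were read from a list of 24 arms, miR-506 to miR-514 and the more distant miR-888 to miR-892. Of these 24, 23 (95.8%) were detected on neither array, beside 82.1% of all miRNAs. None was at least 2-fold lower and 1 (4.17%) was at least 2-fold higher, beside 6.08% of all miRNAs, a share near the background. That call was lost under 6 of 16 alternatives, among them both uses of normexp and the higher floor. The means of the 23 ran from -2.79 to 2.26 on the oe-NC-titled array and from -2.65 to 0.757 on the oe-HOTTIP-titled array. From MIR513C to MIR514A3 the sequence table holds 15 miRNA genes over 95.03 kb, and a detected arm came from 2 of them, MIR513B and MIR514B. Fewer vesicles with a miRNA and less of it per vesicle cannot be told apart in such bulk RNA.

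**Figure D3:**
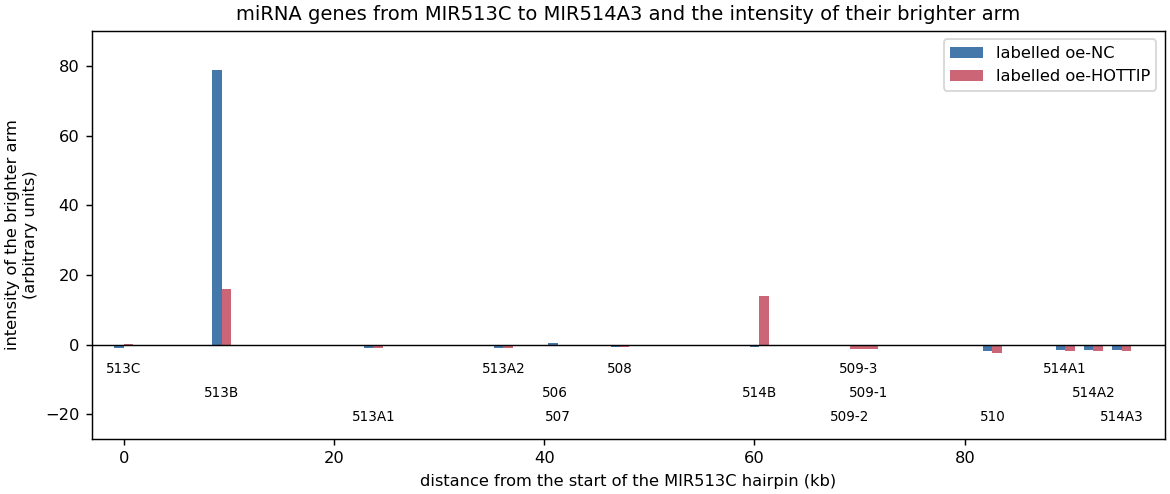
Intensity (arbitrary units) of the brighter arm of each of the 15 miRNA genes from MIR513C to MIR514A3, against the distance from the start of the MIR513C hairpin (kb), on the oe-NC-titled array (blue) and the oe-HOTTIP-titled array (red). Genes are marked without the prefix MIR, and arms listed for several genes are drawn at each. MIR513B shows 78.7 and 16, MIR514B shows 13.9 on the oe-HOTTIP-titled array, and the others lie at background on both.

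The neighbour that was detected, miR-514b-5p, went the other way. It is also the miRNA of the array that shares the seed of miR-513c-5p, which is shown in capitals in both.
miR-513c-5p: uUCUCAAGgaggugucguuuau
miR-514b-5p: uUCUCAAGagggaggcaaucau
miR-514b-5p read -0.64 ± 1.72 (SD, 19 spots) on the oe-NC-titled array, where it was not detected, and 13.9 ± 3.17 (SD, 19 spots) on the oe-HOTTIP-titled array. Its lowest, median and highest spots were -3.04, -1.08 and 3.39 on the former and 1.59, 17.5 and 29.8 on the latter, so the ranges overlapped. The overlap came from its first probe, with 3.51 ± 1.39 (SD, 9 spots) on the oe-HOTTIP-titled array against 24.3 ± 4.15 (SD, 10 spots) for the second, and only 10 of the 20 spots were well above background. Against the lowest detected signal of the oe-NC-titled array it was at least 9.07-fold higher. That lowest signal, 0.976, lies under the negative control spots, and with the signal at which 50% of the miRNAs around it are detected (5.32) the bound was 1.66-fold. The only other array miRNA found with the seed of a matched member, miR-3606-3p (seed of miR-513a-3p), was detected on neither array, at 2.06 ± 2.21 and 1.56 ± 1.57 (SD, 20 spots each). Of the seeds of miR-513a-5p and miR-513b-5p no other copy was found on the array.

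The 5 miRNAs whose scaled log2 signals on the 2 arrays lay nearest to those of miR-513b-3p were miR-1249-3p, miR-22-5p, miR-7113-5p, miR-1228-3p and miR-5188, at distances from 0.51 to 0.93. The likeness rests on 2 arrays and on signals of different probes. The 5 were picked by these same signals, so the direction and size of their differences follow from the choice. miR-1249-3p was at 86.3 ± 3.30 and 22.6 ± 2.52 (SD, 18 spots each), or -2.59 on the log2 scale (spread 0.17). miR-22-5p was at 60.7 ± 11.3 and 22.8 ± 3.51 (SD, 18 spots each), or -2.06 on the log2 scale (spread 0.35). miR-5188 was at 98.2 ± 33.9 and 29.3 ± 5.56 (SD, 20 spots each), or -2.39 on the log2 scale (spread 0.57). miR-7113-5p and miR-1228-3p had log2 differences of -2.56 and -2.05. The probes of miR-7113-5p disagreed, with 0.993 and 97.8 on the oe-NC-titled array, and 1 of them was higher on the oe-HOTTIP-titled array (8.76). Both probes of miR-513b-3p were lower there, as were both probes of miR-1249-3p, miR-22-5p, miR-1228-3p and miR-5188.

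**Figure D4:**
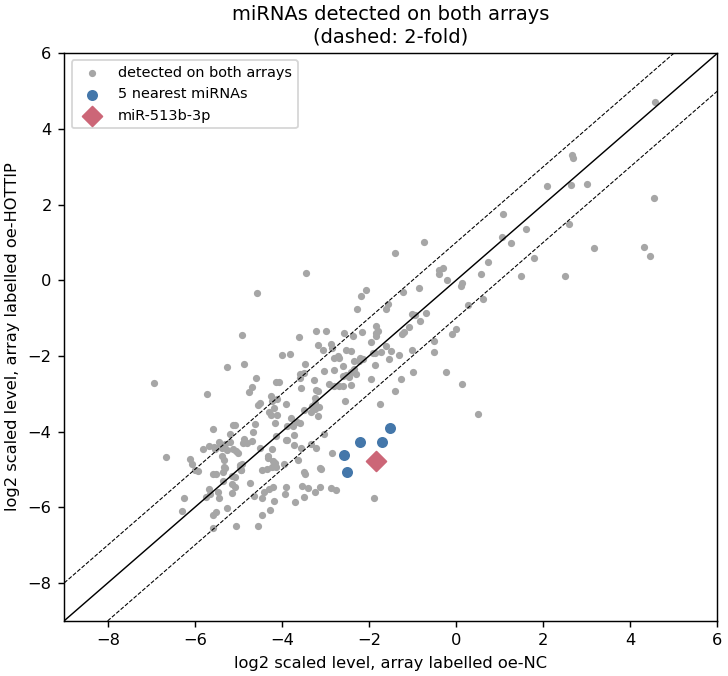
Scaled log2 level of each of the 261 miRNAs detected on both arrays, oe-HOTTIP-titled array against oe-NC-titled array. The solid line marks equal levels and the dashed lines a 2-fold difference. miR-513b-3p (diamond) lies 2.95 below the line of equal levels. The 5 nearest miRNAs (blue), picked by these same levels, lie 2.05 to 2.59 below it.

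The authors' normalized table gave miR-513b-3p 1.71 in the column named for oe-NC and 4.88 in the column named for oe-HOTTIP on the log2 scale, the opposite direction. Its columns follow the other array in general. Taken over miRNAs, which do not stand for replicates, Spearman's rho of the oe-NC column was 0.77 with the array of that title (261 miRNAs) and 1.00 with the other (388 miRNAs). In that table the other 5 arms stood at the floor of 1e-06 in both columns. The table was made from the same 2 arrays, so its same member and fold of like size (9.04) are no separate evidence. With both read by the titles, the table and the scanner output differ in which group is higher. The table read by the titles and the scanner output read by the descriptions both put miR-513b-3p higher for oe-HOTTIP. Which labels are right was not settled here.

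**Figure D5:**
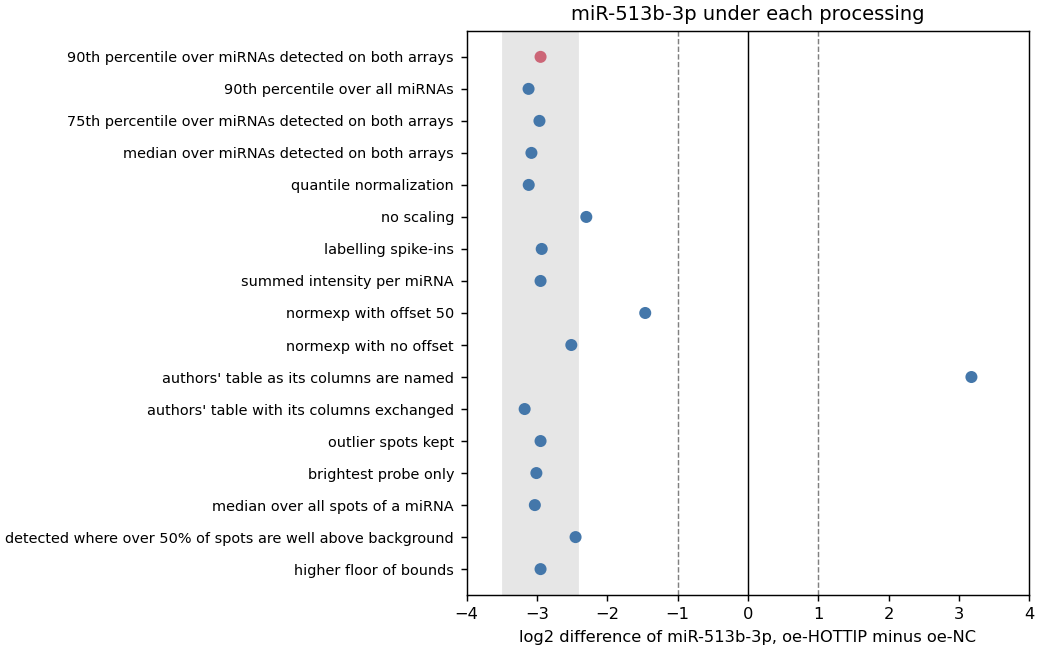
Log2 difference of miR-513b-3p (oe-HOTTIP-titled minus oe-NC-titled) as reported (red) and under each of 16 other ways of processing (blue). The grey band is the reported value ± its spread over spots (0.53) and dashed lines mark 2-fold. The 14 points from the scanner output lie between -3.12 and -1.46. The authors' table lies at 3.18 as its columns are named and, by construction, at -3.18 with them exchanged.

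The RNA was also read for miRNAs of cell types. Of 7 squamous epithelial miRNAs 5 were detected on both arrays, led by miR-205-5p at 415 and 490 units, and miR-203a-3p was detected on neither. Of 5 miRNAs of blood cells and serum 4 were detected on both, with miR-451a at 2233 and 2552, so a defining red-cell miRNA was present beside the epithelial ones. The summed scaled level of the epithelial list was 189% of the 90th percentile on the oe-NC-titled array and 145% on the oe-HOTTIP-titled array, and that of the blood list 814% and 594%. These sums add signals of different probes and are mostly those of miR-205-5p and miR-451a. Other members went either way, with log2 differences of 0.69 for miR-223-3p, 0.17 for miR-141-3p and -1.75 for miR-486-5p, and miR-200a-3p was detected on the oe-HOTTIP-titled array alone. Of 3 muscle miRNAs 0 were detected on both arrays, but miR-133a-3p was detected on the oe-NC-titled array alone (8.94 against 0.171) and miR-206 on the oe-HOTTIP-titled array alone (14.4 against -1.11). The liver miRNA miR-122-5p was detected on both (8.99 and 14.8), and both neuronal miRNAs lay at background. The part of these in the difference of miR-513b-3p was not tested.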

How the data were processed

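RNA from exosomes of FaDu cells (200 ng per array) was labelled with Cy3 and hybridized to 1 Agilent miRNA array per group. The authors deposited the scanner output, with a background-subtracted intensity per spot and flags for detected, outlier, saturated and well-measured spots, and a table of normalized log2 values of 2570 rows, made with GeneSpring and a 90th percentile normalization per the methods. Feature Extraction is given as version 10.10 in the submitters' processing notes and as 11.5.1.1 in the scanner output.

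After removal of control and outlier spots, spots were averaged per probe and probes per miRNA, and values were scaled to the 90th percentile, per array, of the miRNAs detected on both before log2 was taken. Where only 1 array detected a miRNA, its fold is a bound: the dim side was set to the lowest detected signal there, or to the measured one if higher. No test was run. The SD over spots was pooled within probes. The named miRNAs are the 6 members, detected members of the neighbour list and of shared seeds, and the 5 miRNAs nearest to miR-513b-3p, and miR-3606-3p was named after its values were seen. The members and lists were chosen with earlier results of these data known. Sequences came from the RefSeq miRNA table. The alternatives are scalings, summed intensity, normexp, the authors' table, outlier spots, probes, detection and floor; normexp used median spot signals. The number of arrays limits the precision. The work used limma 3.58.1 under R 4.3.3, and Python 3.11.15 with pandas 2.3.3, numpy 2.4.6 and matplotlib 3.10.9.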

Additional observations from a re-analysis of the deposited data

How the results depend on the processing

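The log2 difference of miR-513b-3p kept its direction and stayed past 2-fold under the 14 alternatives from the scanner output, from -3.12 to -1.46. Of these, keeping outlier spots and the higher floor could not move it, since it has no outlier spot and no bound. Summed intensity returned the value as reported (-2.95) and so adds no separate check. The difference was -2.30 without scaling. With normexp and an offset of 50, which by construction pulls ratios of dim signals towards 1, it was -1.46. Under the authors' table as its columns are named it turned to 3.18 (and, by construction, was -3.18 with the columns exchanged), so that 0 members were lower and 1 was higher, and in the neighbour list 1 was lower and 0 higher. With detection by over 50% of spots well above background, and in the authors' table, 1 member was again detected on both arrays and 5 on neither, and the other alternatives leave detection as it is. The neighbour list also held 0 higher miRNAs with normexp with and without an offset, with the median over all spots, with detection by over 50% of spots well above background and with the higher floor. For miR-514b-5p the bound on the log2 scale ran from 0.71 to 3.83 over the alternatives that gave one in the same direction, and it was -1.27 in the authors' table as named. There the nearest miRNAs also turned, to 2.75 (miR-1249-3p), 2.24 (miR-22-5p), 2.84 (miR-7113-5p), 2.24 (miR-1228-3p) and 2.53 (miR-5188). No paired analysis was possible because only 1 array stands for either group, and for the same reason no replicate could be left out. The signal over background limits the 5 undetected arms, for which no fold could be had.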
